A study of Homo sapiens with 12 samples.

Results

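The pyruvate dehydrogenase complex and the enzymes that switch it off and on were followed through their transcripts in human brain microvascular endothelial cells (HBMEC), which form the inner wall of the brain's small vessels. The 10 genes were taken by name, and all 10 were found among the 23398 entries of the deposited count table: PDHA1, PDHB, DLAT, DLD and PDHX for the subunits, PDK1, PDK2, PDK3 and PDK4 for the kinases, and PDP1 for a phosphatase. The cells, sold by Cell Systems as primary cells, received, for 48 h, either an siRNA against SLC2A1, the gene of the glucose transporter Glut1 (siGlut1), or a non-silencing siRNA (NS). The medium held high glucose or control glucose, at concentrations that no label states. The 4 groups were siGlut1 in high glucose, NS in high glucose, siGlut1 in control glucose and NS in control glucose, with 3 replicate numbers each, and all of them had been transfected. A library is named by its siRNA, its medium and its number, as in siGlut1 high 1. The labels do not say whether replicates came from separate cultures or separate lots of cells, so the p-values cover the spread among these samples alone, and that spread may be technical.

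The complex sits in the mitochondrial matrix and turns pyruvate, the end product of glycolysis, into acetyl-CoA for the citric acid cycle. Its E1 component, made of the alpha subunit PDHA1 and the beta subunit PDHB, removes carbon dioxide from pyruvate. DLAT, the E2 core, passes the acetyl group to coenzyme A, DLD is the E3 subunit that restores the lipoyl arm, and PDHX binds E3 to the core. The kinases PDK1 to PDK4 phosphorylate the alpha subunit and stop the complex, and the phosphatases remove the phosphate and start it again. Endothelial cells are known for drawing most of their energy from glycolysis, so that much of their pyruvate leaves as lactate.

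Total deposited counts ranged from 40135082 to 90536476 over the 11 libraries used, with a median of 49686182. The column of NS high 2 equalled the mean of NS high 1 and NS high 3 in 23397 of 23398 counts, those of all 10 genes included, and was left out, so that NS in high glucose rests on 2 libraries. Every count of the other columns was even, and no source used here says whether both reads of a pair were counted, so the number of fragments behind a count may be smaller than the count. SLC2A1 had 1.93, 1.96 and 1.74 RPKM in siGlut1 high 1, 2 and 3, against 5.78 and 5.63 RPKM in NS high 1 and 3, and 2.33, 2.47 and 1.71 RPKM in siGlut1 control 1, 2 and 3, against 7.002, 6.47 and 6.06 RPKM in NS control 1, 2 and 3. Its log2 fold change was -1.61 in high glucose and -1.58 in control glucose (adjusted p = 0.000901 and 0.000897, edgeR quasi-likelihood test). All 12 endothelial markers looked up, PECAM1 and CDH5 among them, were present, with a summed level of 1488 to 2053 RPKM. With siGlut1 over both media, 2 of the 12 had an adjusted p under 0.05, against 14.4% of all genes tested. These were KDR and TEK, both higher (0.31 and 0.29, adjusted p = 0.0163 and 0.0144, edgeR). Of the others, EMCN (-0.32), VWF (-0.16), EGFL7 (-0.090), CLDN5 (-0.051) and ESAM (-0.037) had negative values. PECAM1, CDH5, TIE1, ERG and ROBO4 had positive ones, from 0.058 to 0.19. Of the markers of other cells, summed levels were at most 0.0366 RPKM for 6 astrocyte genes, 1.69 to 7.77 for 7 fibroblast genes, 7.24 to 10.3 for 7 neuron and oligodendrocyte genes, 20.5 to 39.4 for 7 microglia and leukocyte genes, nearly all of it CD68, and 156 to 193 for 5 epithelial genes, nearly all of it KRT18. PTPRC stayed at or below 0.0192 RPKM, PDGFRB at or below 0.0635, and EPCAM at or below 0.364, while ACTA2 had 10.3 to 12.7 RPKM. Of 5 pericyte and smooth muscle markers tested, 1 differed with siGlut1 over both media, RGS5 (-0.35, adjusted p = 0.00394, edgeR). The summed level of all 9 on that list, nearly all of it RGS5, was 238 to 284 RPKM in siGlut1 high, 329 to 337 in NS high, 213 to 227 in siGlut1 control and 257 to 300 in NS control. The part of RGS5, KDR and TEK in the results below was not tested.

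Levels are given as RPKM, scaled counts per kilobase of the deposited gene length and adjusted for library size, which allows genes to be compared. PDHB had the highest mean level over the 11 libraries, at 46.1 RPKM, followed by DLD at 30.0, PDHA1 at 19.4, DLAT at 13.1, PDP1 at 12.9 and PDHX at 9.65 RPKM. PDK2 followed at 7.19, PDK1 at 2.70, PDK3 at 1.09 and PDK4 at 1.04 RPKM. The order was the same in every library between PDHB, DLD, PDHA1 and DLAT, and again between PDK2, PDK1 and PDK3. DLAT lay above PDP1 in 6 of 11 libraries and PDK3 above PDK4 in 7 of 11, so neither pair was separated beyond its spread. PDHX lay above PDK2 in 10 of 11 libraries and PDP1 above PDHX in all 11, although the ranges of each pair overlapped. Every subunit, and PDP1 too, had a higher mean level than any of the kinases. The order among PDK1, PDK3 and PDK4 rests on the deposited lengths, which are 4576 bases for PDK1 and 13136 for PDK3, while the longest coding GENCODE transcripts have 14193 and 1921 bases. With those transcript lengths, an alternative chosen after seeing the data, PDK3 averaged 7.43 RPKM, PDK2 7.09, PDK4 1.08 and PDK1 0.871, and every subunit and PDP1 still averaged more than any kinase. All 10 genes passed the filter on low counts.

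**Figure D1:**
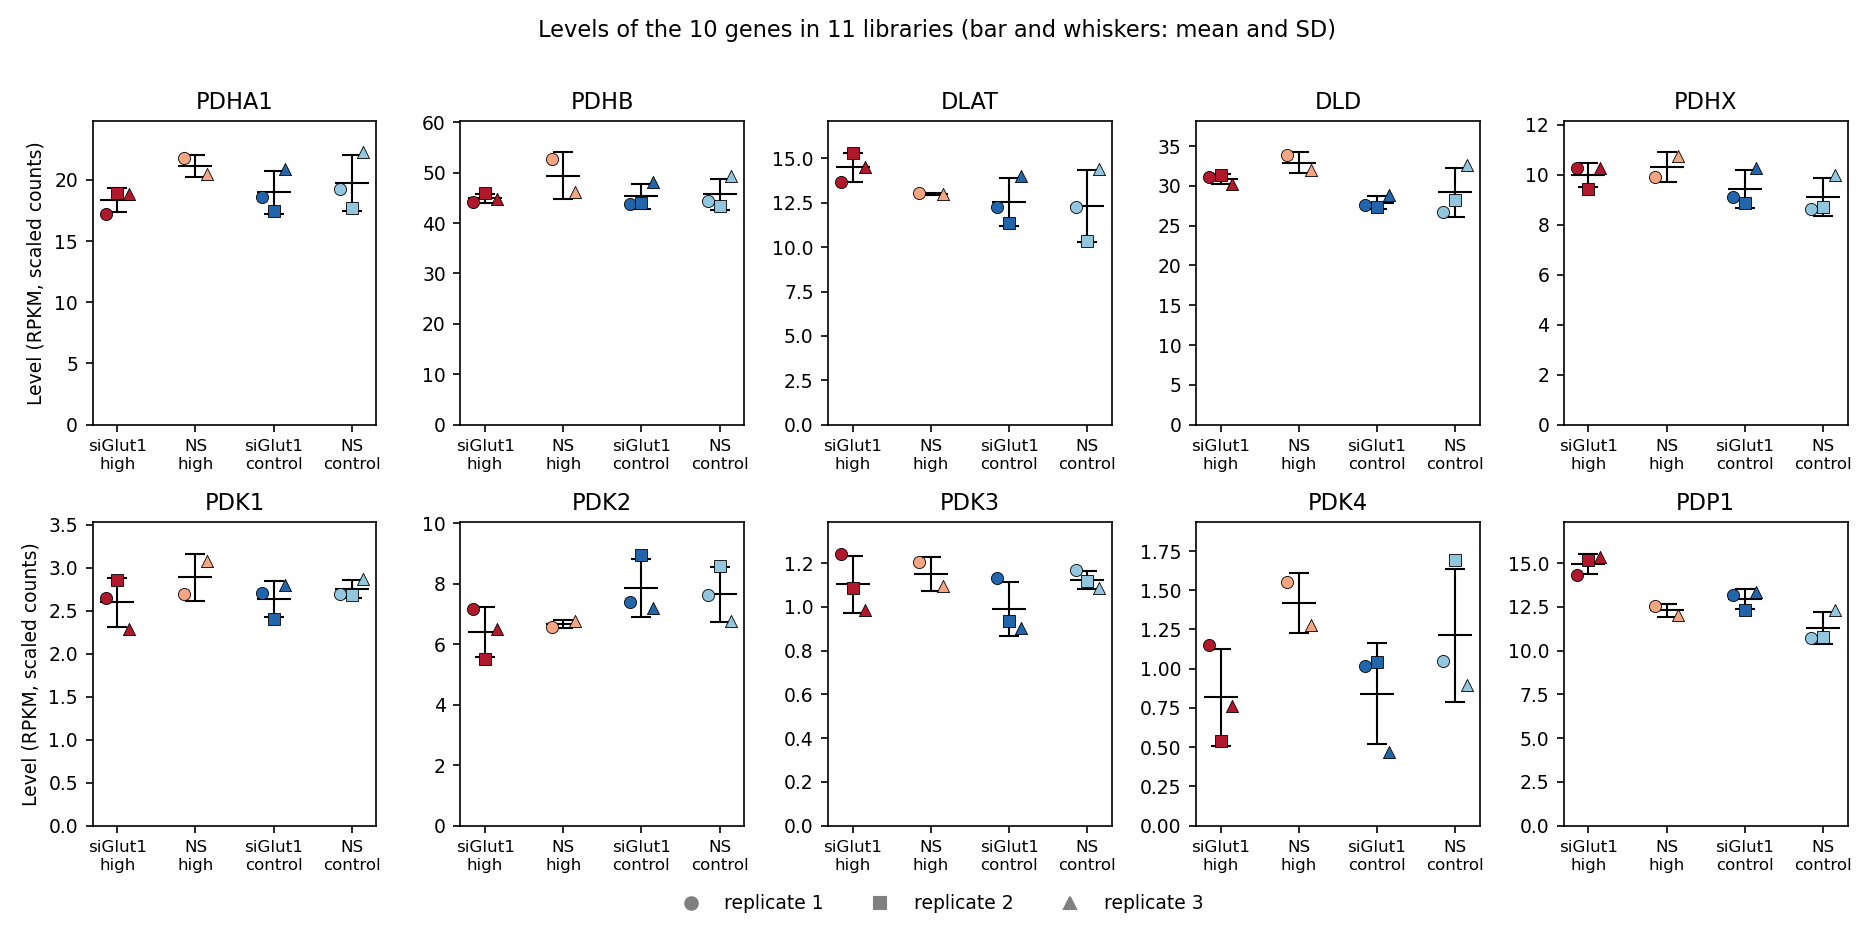
Level of each of the 10 genes in RPKM (y axis, from 0) in the libraries of the 4 groups (x axis), with replicates as symbols and the group mean and SD as bars (n = 3, and n = 2 for NS high). PDP1 reached 14.3 to 15.4 RPKM in siGlut1 high, above all other libraries, and PDK4 spread from 0.470 to 1.70 RPKM.

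The 2 genes of the E1 component differed little between groups. PDHA1 (chromosome X, 19362011 to 19379825, hg19) had 17.2, 19.0 and 18.9 RPKM in siGlut1 high, 21.8 and 20.5 RPKM in NS high, 18.6, 17.5 and 20.9 RPKM in siGlut1 control and 19.2, 17.7 and 22.3 RPKM in NS control. PDHB (chromosome 3, 58413357 to 58419579) had 44.1, 45.9 and 44.8 RPKM in siGlut1 high, 52.7 and 46.1 RPKM in NS high, 43.8, 44.0 and 48.1 RPKM in siGlut1 control and 44.4, 43.5 and 49.3 RPKM in NS control. For both genes the siGlut1 libraries lay below the NS libraries in high glucose without overlap, PDHB by a small margin. Such a lack of overlap was common there, at 44.5% of all genes tested. In control glucose the groups overlapped. The ratio of PDHB to PDHA1 was 2.38 ± 0.109 (SD, n = 11) and kept between 2.21 and 2.56 in all libraries. PDHB varied least of the 10 genes, its highest library being 1.21 times its lowest.

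Among the other subunits, DLAT (chromosome 11, 111895538 to 111935002) had 13.7, 15.3 and 14.5 RPKM in siGlut1 high, 13.03 and 12.97 RPKM in NS high, 12.3, 11.3 and 14.0 RPKM in siGlut1 control and 12.3, 10.3 and 14.4 RPKM in NS control. Its siGlut1 libraries were the higher ones in high glucose, with no overlap (as for 44.5% of all genes tested, in either direction). The control-glucose groups spanned nearly the same range. DLD (chromosome 7, 107531586 to 107561643), which also serves the other 2-oxoacid dehydrogenases, had 31.2, 31.3 and 30.2 RPKM in siGlut1 high, 33.9 and 32.0 RPKM in NS high, 27.6, 27.3 and 28.8 RPKM in siGlut1 control and 26.7, 28.2 and 32.7 RPKM in NS control. The high-glucose libraries of DLD lay above the control-glucose libraries with siGlut1, where 22.6% of all genes tested did not overlap. With NS only NS control 3 reached into the high-glucose range. PDHX (chromosome 11, 34937677 to 35017675) had 10.3, 9.42 and 10.3 RPKM in siGlut1 high, 9.89 and 10.7 RPKM in NS high, 9.09, 8.87 and 10.3 RPKM in siGlut1 control and 8.63, 8.71 and 9.998 RPKM in NS control. The groups of PDHX overlapped in each comparison, both between siRNAs and between media. DLAT stood at 1.36 ± 0.120 times PDHX and DLD at 2.31 ± 0.224 times DLAT (SD, n = 11).

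With the deposited lengths, PDK2 made up most of the message of the kinases. It held 59.7% ± 3.80 of the summed level of the kinase genes, PDK1 22.7% ± 2.95, PDK3 9.10% ± 1.11 and PDK4 8.53% ± 2.62 (SD, n = 11). On that scale PDK2 was the most abundant in each library, with 54.6% to 67.2%, and PDK1 the next, with 18.0% to 28.5%. The authors' deposited RPKM gave the same shares, but they use the same lengths. With the GENCODE transcript lengths, PDK3 held 45.2% ± 3.88, PDK2 43.0% ± 4.24, PDK4 6.42% ± 1.94 and PDK1 5.33% ± 0.651, and PDK2 lay above PDK3 in 3 of 11 libraries. Of the scaled counts with no length, PDK2 held 44.4% ± 4.02, PDK3 26.1% ± 2.47, PDK1 22.6% ± 2.50 and PDK4 6.90% ± 2.13 (SD, n = 11). PDK2 lay above PDK1 in 11 of 11 libraries on each of these scales. Which transcripts the cells express cannot be read from gene counts, so the rank of PDK3 against PDK1 and PDK2 was not settled.

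PDK1 (chromosome 2, 173420779 to 173463862), known in other cells as a target of hypoxia signalling, had 2.64, 2.85 and 2.29 RPKM in siGlut1 high, 2.70 and 3.08 RPKM in NS high, 2.71, 2.40 and 2.79 RPKM in siGlut1 control and 2.70, 2.68 and 2.87 RPKM in NS control. PDK3 (chromosome X, 24483344 to 24568583) had 1.24, 1.09 and 0.983 RPKM in siGlut1 high, 1.21 and 1.09 RPKM in NS high, 1.13, 0.936 and 0.904 RPKM in siGlut1 control and 1.17, 1.12 and 1.08 RPKM in NS control. For PDK1 and PDK3 the groups overlapped in each siRNA and each glucose comparison. PDK2 (chromosome 17, 48172101 to 48188733), the kinase found in most tissues, had 7.17, 5.52 and 6.51 RPKM in siGlut1 high, 6.58 and 6.77 RPKM in NS high, 7.41, 8.95 and 7.21 RPKM in siGlut1 control and 7.62, 8.58 and 6.76 RPKM in NS control. With siGlut1, every high-glucose library of PDK2 was below every control-glucose library, where 22.6% of all genes tested did not overlap. With NS, the groups met at NS high 3 and NS control 3.

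PDK4 (chromosome 7, 95212809 to 95225925), the kinase known to be induced by fasting and fatty acids in muscle and liver, was the most variable of the 10 genes. It had 1.15, 0.540 and 0.760 RPKM in siGlut1 high, 1.56 and 1.28 RPKM in NS high, 1.01, 1.04 and 0.470 RPKM in siGlut1 control and 1.05, 1.70 and 0.897 RPKM in NS control. The NS libraries lay above all siGlut1 libraries in high glucose, where 44.5% of all genes tested did not overlap. The groups overlapped in control glucose. Behind these levels stood only 80 to 302 counts per library, against 1070 to 2382 for PDK2. The highest library of PDK4 was 3.61 times the lowest, and for each of the other genes this ratio was between 1.21 and 1.62.

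PDP1, on chromosome 8, encodes a catalytic subunit of the pyruvate dehydrogenase phosphatase. It had 14.3, 15.2 and 15.4 RPKM in siGlut1 high, 12.6 and 12.1 RPKM in NS high, 13.2, 12.3 and 13.4 RPKM in siGlut1 control and 10.7, 10.8 and 12.3 RPKM in NS control. In high glucose the siGlut1 libraries were all above the NS libraries, where 44.5% of all genes tested did not overlap. In control glucose siGlut1 control 2 and NS control 3, both at 12.3 RPKM, overlapped by a narrow margin, and the other siGlut1 libraries were above the other NS libraries.

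The question put to the siRNA comparison was whether suppression of Glut1 went with other levels of these transcripts. Over both media together, PDP1 rose with siGlut1 by 0.24 ± 0.055 on the log2 scale (SE; 95% interval 0.12 to 0.36), or 1.18-fold, with an adjusted p of 0.0149 in edgeR's quasi-likelihood test over 14319 genes. It was the only one of the 10 genes past the threshold of 0.05, against 14.4% of all genes tested in either direction and 7.93% higher, so the share of the 10 genes was near that of the table. Without NS high 3, the change of PDP1 was 0.22 with an adjusted p of 0.0768 (edgeR). Without any one of the 10 other libraries it stayed past the threshold, at 0.22 to 0.27. Since the cells were measured in bulk, a change in the share of a kind of cell and a change in RNA per cell cannot be told apart here.

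PDK4 had the largest difference in size between siRNAs and the least precise one. Its log2 fold change over both media was -0.66 ± 0.25 (SE; 95% interval -1.21 to -0.098), with an adjusted p of 0.110 in edgeR. DESeq2 gave -0.66 with an adjusted p of 0.0492 and called PDK4 lower, together with PDP1 higher, against 19.7% of all genes with an adjusted p. PDP1 and PDK4 were the 2 genes with an unadjusted p under 0.05 in edgeR, against 29.6% of all genes. For the other 8 genes the log2 fold change lay between -0.13 for PDHA1 and 0.09 for DLAT. The 95% interval of PDHA1 was -0.29 to 0.025, that of PDHB -0.20 to 0.050, that of DLAT -0.098 to 0.28, that of DLD -0.20 to 0.046 and that of PDHX -0.15 to 0.14. Those of the kinases were -0.29 to 0.065 for PDK1, -0.21 to 0.19 for PDK2 and -0.31 to 0.064 for PDK3. The median size of the change was 0.0998 over the 10 genes and 0.140 over all genes tested.

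**Figure D2:**
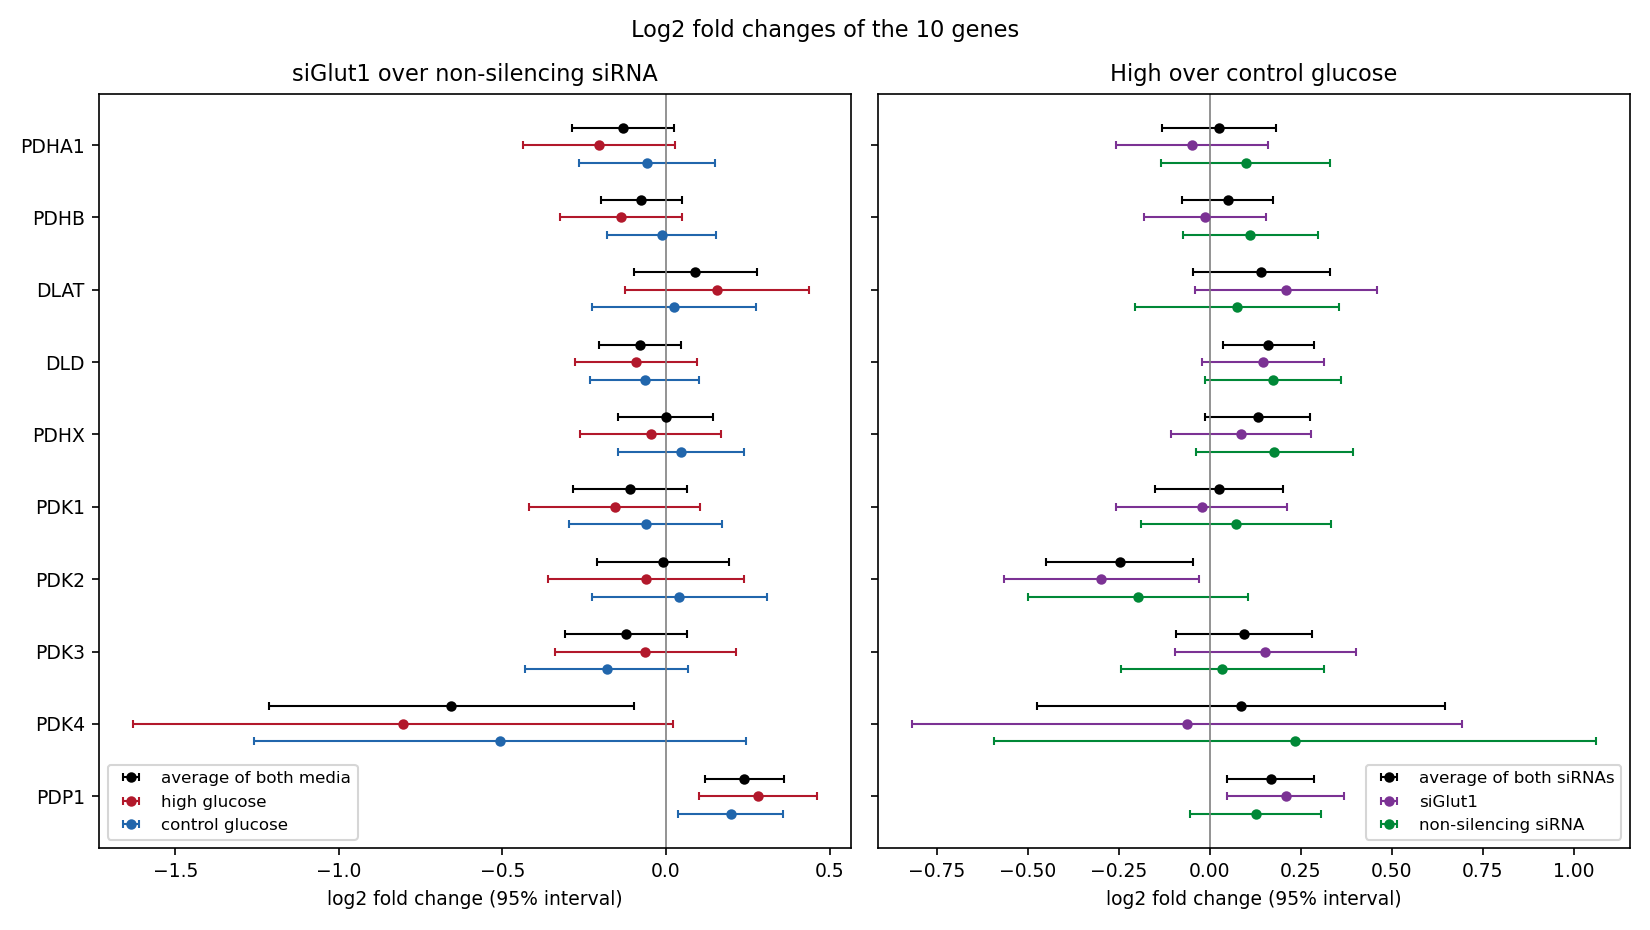
Log2 fold change with its 95% interval (x axis) of each gene (rows), siGlut1 over non-silencing siRNA on the left and high over control glucose on the right, for the average and for each level of the other factor. The average for PDP1 on the left, 0.24, has an interval of 0.12 to 0.36, and that of PDK4 is the widest, at -1.21 to -0.098.

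Within high glucose, none of the 10 genes passed the threshold in edgeR (0 of 10, against 4.12% of all genes). PDP1 had an unadjusted p under 0.05 (1 of 10, against 20.8%), with a log2 fold change of 0.28 ± 0.082 and an adjusted p of 0.0823. DESeq2 called PDP1, at 0.28 with an adjusted p of 0.0235, and no other of the genes (1 of 10, against 9.99% of all genes). In edgeR, PDP1 was called without NS control 3, a library outside this comparison (0.28, adjusted p = 0.0307, against 7.56% of all genes). A fit of the high-glucose groups alone also called it (0.27, adjusted p = 0.0482, against 8.28%). Only 5 of 21 alternatives called PDP1 here, DESeq2 among them. With each library's trend on gene length removed, PDP1 had 0.25 and an adjusted p of 0.137 (edgeR). The log2 fold change of PDK4 was -0.80 ± 0.38 (95% interval -1.63 to 0.020), that of PDHA1 -0.20 ± 0.11, that of DLAT 0.16 ± 0.13 and that of PDHB -0.14 ± 0.085. The groups did not overlap for 6 of the 10 genes, higher with siGlut1 for DLAT and PDP1 and lower for PDHA1, PDHB, DLD and PDK4, against 44.5% of all genes tested.

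Within control glucose, again none passed in edgeR (0 of 10, against 2.96% of all genes) or in DESeq2 (0 of 10, against 7.78%). PDP1 alone had an unadjusted p under 0.05 (against 17.4% of all genes), with a log2 fold change of 0.20 ± 0.073 (95% interval 0.038 to 0.36) and an adjusted p of 0.178 in edgeR. PDK4 had -0.51 ± 0.34 (95% interval -1.26 to 0.24), which became -0.19 without NS control 2 and -0.23 without siGlut1 control 3, and PDK3 had -0.18 ± 0.11. The groups overlapped for all 10 genes, where 20.6% of all genes tested did not overlap. Whether the effect of siGlut1 differed between media was tested as an interaction, which called 0 of the 10 genes and 0 of all genes in edgeR and in DESeq2, with 0 of the 10 at an unadjusted p under 0.05 (against 2.76% of all genes). The interaction was 0.082 for PDP1 (95% interval -0.16 to 0.32) and -0.30 for PDK4 (95% interval -1.42 to 0.82), so that sizable differences between media remain within the intervals.

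High glucose was the other treatment. Averaged over both siRNAs, edgeR called 0 of the 10 genes (against 0.412% of all genes) and DESeq2 0 as well (against 3.99%), with 3 of 10 at an unadjusted p under 0.05 in edgeR (against 16.9%). These 3 were PDP1, with a log2 fold change of 0.17 ± 0.055 (SE) and an adjusted p of 0.187, DLD, with 0.16 ± 0.057 and 0.207, and PDK2, with -0.25 ± 0.092 and 0.223. The 95% intervals were 0.047 to 0.29 for PDP1, 0.036 to 0.29 for DLD and -0.45 to -0.045 for PDK2. DLAT had 0.14 ± 0.086, PDHX 0.13 ± 0.066 and PDK3 0.094 ± 0.085. PDHB, PDHA1 and PDK1 were nearest to 0 (0.050, 0.025 and 0.025), and PDK4 had 0.086 with the widest interval, -0.47 to 0.65.

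With siGlut1, edgeR called 0 of the 10 genes (against 0.014% of all genes) and DESeq2 0 (against 3.31%), with PDP1 and PDK2 at an unadjusted p under 0.05 (2 of 10, against 15.2%). The log2 fold change of high over control glucose was 0.21 ± 0.073 for PDP1 (adjusted p = 0.233, edgeR), -0.30 ± 0.12 for PDK2 (0.285), 0.15 ± 0.076 for DLD (0.387) and 0.21 ± 0.11 for DLAT (0.413). The groups did not overlap for DLD and PDP1, which were higher in high glucose, and for PDK2, which was lower (3 of 10, against 22.6% of all genes). PDK3 had 0.15 ± 0.11, which became -0.16 once each library's trend on gene length was removed. Its deposited length of 13136 bases is the longest of the 10, and over all genes the log2 fold change of this comparison went with gene length (Spearman's rho 0.379 across genes, which are not independent). With NS, edgeR called 0 of the 10 genes and 0 of all genes (0%), DESeq2 called 0 of the 10 (against 0.23%), and 0 of the 10 had an unadjusted p under 0.05 (against 5.4%). Here the values were 0.17 ± 0.085 for DLD, 0.18 ± 0.098 for PDHX, 0.13 ± 0.082 for PDP1, 0.076 ± 0.13 for DLAT and -0.20 ± 0.14 for PDK2. The groups overlapped for all 10, where 17.8% of all genes did not. The siRNA and glucose comparisons share libraries, so their values are not independent of each other.

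For these genes, siGlut1 control 3 and NS control 3 stood apart from the other control-glucose libraries. In each of these groups, replicate 3 was the highest library for all 5 subunits, for PDK1 and for PDP1, and the lowest for PDK2, PDK3 and PDK4. Over all genes tested, replicate 3 was the highest in 40.7% of genes in NS control and 39.5% in siGlut1 control. NS control 3 deviated from its group mean on the log2 CPM scale (counts scaled to library size) by 0.18 for PDHA1, 0.11 for PDHB, 0.24 for DLAT, 0.17 for DLD and 0.14 for PDHX, and siGlut1 control 3 by 0.14, 0.09, 0.16, 0.05 and 0.13. PDK2 deviated by -0.17 and -0.12 in NS control 3 and siGlut1 control 3, and PDK4 by -0.38 and -0.74. What set these libraries apart was not tested, and the labels do not say which library was made with which of the kits they name.

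**Figure D3:**
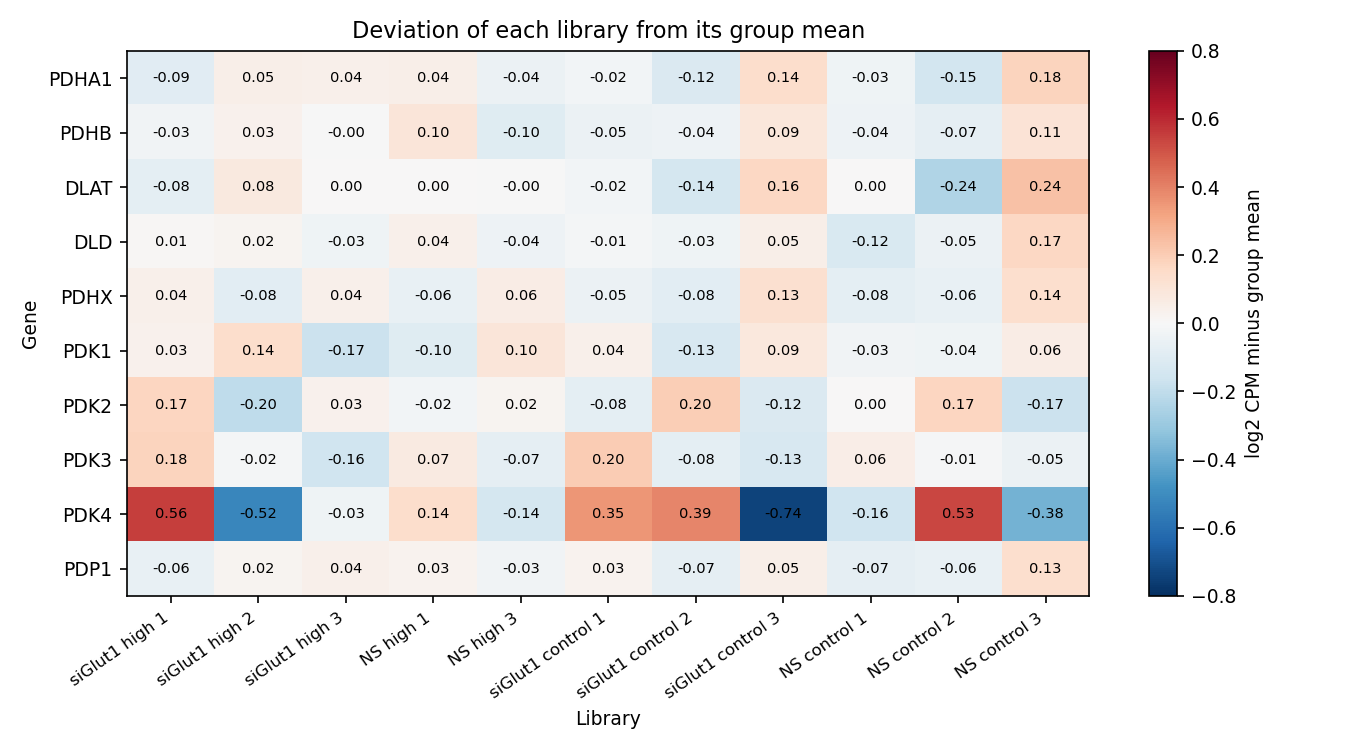
Log2 CPM of each gene (rows) in each library (columns) minus its group mean, in colour and number. The columns of siGlut1 control 3 and NS control 3 are positive for the 5 subunits and negative for PDK2, PDK3 and PDK4.

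Leaving both of these libraries out moved the glucose comparison most. Each was the highest of its group for DLAT, DLD, PDHX and PDP1 and the lowest for PDK2. The direction of the shifts below therefore follows from the choice of libraries. The calls describe how far the comparison depends on them and are no separate support for a glucose effect. Averaged over siRNAs and without both, edgeR called 5 of the 10 genes, against 18.1% of all genes tested. Higher in high glucose were DLAT at 0.25 ± 0.062 (adjusted p = 0.0226), DLD at 0.22 ± 0.044 (0.0109), PDHX at 0.20 ± 0.054 (0.0289) and PDP1 at 0.22 ± 0.048 (0.0152), and lower was PDK2 at -0.32 ± 0.089 (0.0347). Without NS control 3 alone, DLD (0.21, adjusted p = 0.0290) and PDP1 (0.20, adjusted p = 0.0364) were called, against 5.89% of all genes. The count of all genes called went up in the same step, to 2581 without both libraries and 839 without NS control 3, against 59 with all 11. PDP1 with siGlut1 over both media had 0.25 ± 0.048 without both libraries (adjusted p = 0.00567, edgeR, against 17.8% of all genes called).

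**Figure D4:**
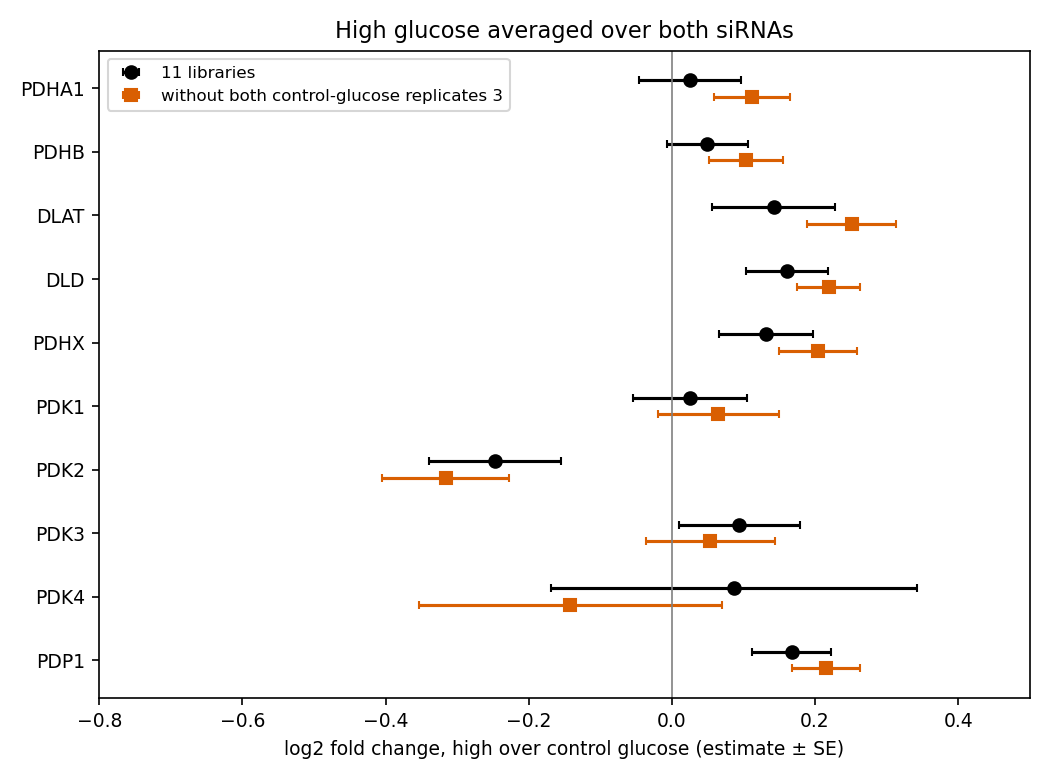
Log2 fold change of high over control glucose averaged over both siRNAs (x axis, estimate and SE) for each gene (rows), from 11 libraries and without siGlut1 control 3 and NS control 3. DLAT moved to 0.25 without them, against 0.14 with them, and PDK4 changed sign, with -0.14 without them and 0.086 with them.

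The balance of PDP1 against the kinases is given as a description, since its parts were tested above. PDP1 stood at 1.17, 1.52 and 1.46 times the summed kinase level in siGlut1 high 1, 2 and 3, and at 1.04 and 0.986 times in NS high 1 and 3. The ratio was 1.07, 0.923 and 1.17 in siGlut1 control and 0.855, 0.767 and 1.06 in NS control. The siGlut1 libraries were above the NS libraries in high glucose and overlapped with them in control glucose. For single genes, 44.5% of all those tested did not overlap in high glucose. With the GENCODE transcript lengths the ratio was 0.859, 1.12 and 1.105 in siGlut1 high, 0.771 and 0.772 in NS high, 0.819, 0.761 and 0.960 in siGlut1 control and 0.648, 0.608 and 0.817 in NS control, with the same separation in high glucose and overlap in control glucose. By the deposited lengths, PDK2 held 58.6% ± 3.26 of the kinase level in siGlut1 high, 55.0% ± 0.500 in NS high, 63.6% ± 3.39 in siGlut1 control and 60.0% ± 1.55 in NS control (SD, n = 3, and n = 2 for NS high). PDK4 held 7.34% ± 2.02 in siGlut1 high, 11.7% ± 1.73 in NS high, 6.74% ± 2.27 in siGlut1 control and 9.38% ± 2.34 in NS control.

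**Figure D5:**
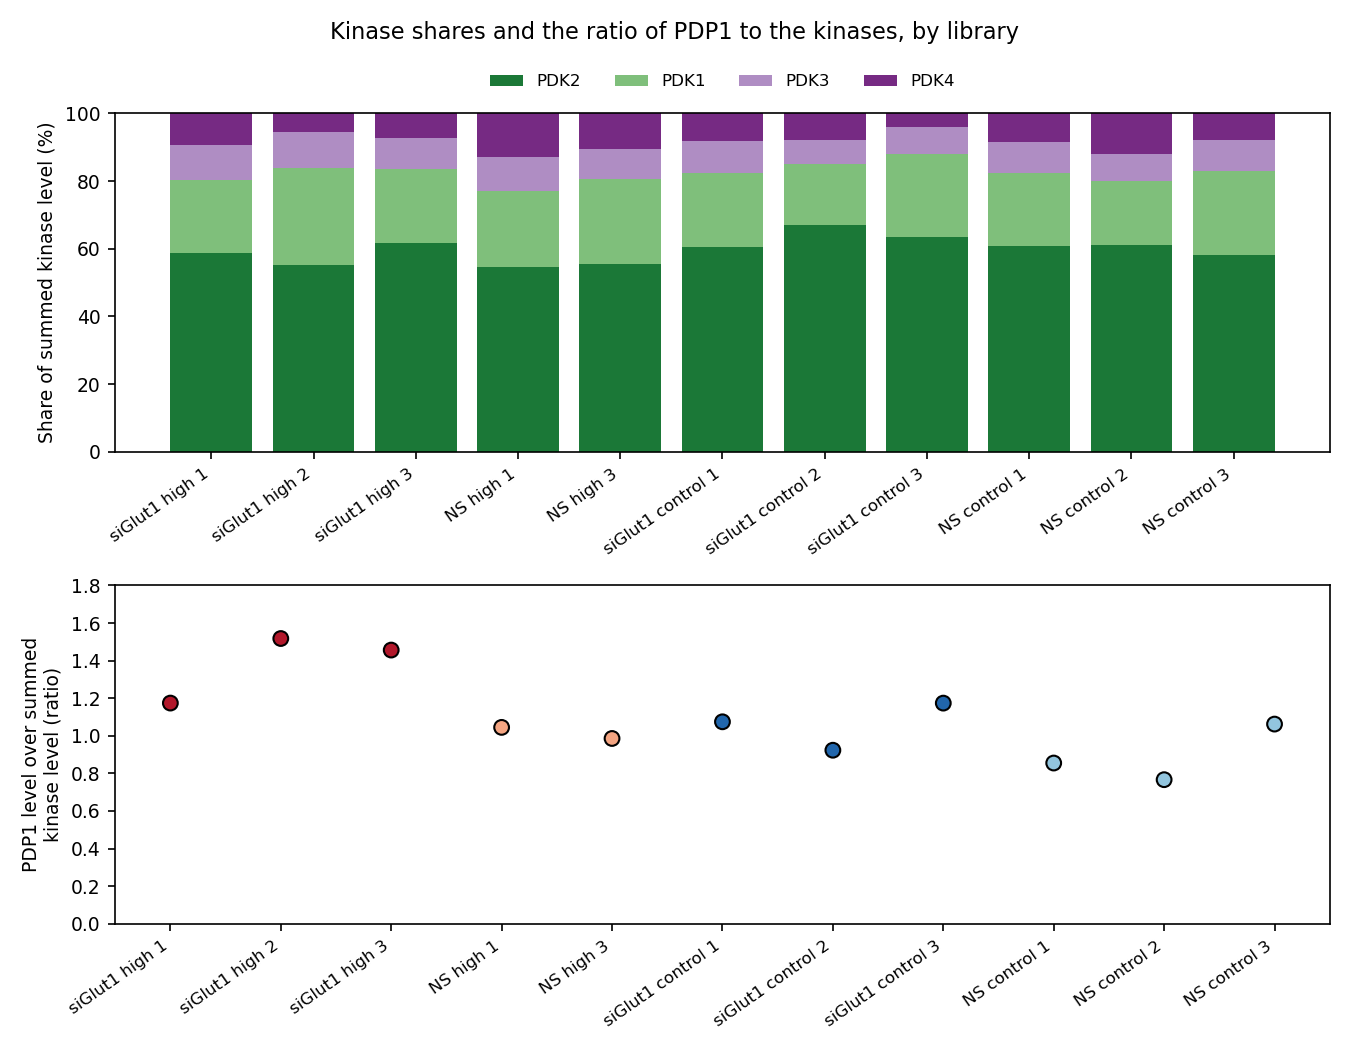
Upper plot, share of each kinase gene in the summed RPKM of PDK1 to PDK4 (y axis, percent) per library, by the deposited gene lengths; lower plot, ratio of PDP1 to that sum (y axis). PDK2 took 54.6% to 67.2% in all 11 libraries, and the ratio reached 1.52 in siGlut1 high 2.

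The other subunits of the phosphatase did not pass the threshold in any comparison. PDP2, the other catalytic subunit, averaged 2.44 ± 0.174 RPKM in siGlut1 high, 2.44 ± 0.215 in NS high, 2.26 ± 0.1002 in siGlut1 control and 2.20 ± 0.156 in NS control (SD, n = 3, and n = 2 for NS high). Its log2 fold change with siGlut1 over both media was 0.017 (95% interval -0.14 to 0.17). That interval overlaps the one of PDP1, 0.12 to 0.36, and the difference between the genes was not tested. PDPR, the regulatory subunit, averaged 8.35 ± 0.579 RPKM in siGlut1 high, 7.50 ± 0.0120 in NS high, 7.53 ± 0.873 in siGlut1 control and 7.90 ± 0.896 in NS control. Its log2 fold change was 0.042 (95% interval -0.13 to 0.21), and this interval overlaps that of PDP1 too.

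Around the complex, 7 lists of genes were read from the same fit, for siGlut1 against NS over both media, where 14.4% of all genes were called. List medians lay between -0.081 and 0.087, against -0.0045 over all genes. Of 17 genes that make, move or use pyruvate, 1 rose and 1 fell. The one that fell was MPC2 (listed as BRP44), a subunit of the mitochondrial pyruvate carrier, at -0.26 ± 0.072 (adjusted p = 0.0358, edgeR). The one that rose was GPT, an alanine aminotransferase, which had at most 0.195 RPKM and was at 0 in both NS high libraries. Of 18 genes for the phosphatase partners and for making lipoate, the cofactor arm of DLAT, 1 fell, ISCA2, an iron-sulphur assembly protein, at -0.24 ± 0.072 (0.0431). Of 12 genes of the related 2-oxoacid dehydrogenases, 1 fell, BCKDHB, the beta subunit of the branched-chain enzyme, at -0.31 ± 0.089 (0.0385). Of 15 tested genes for cofactors, PANK3 rose by 0.42 ± 0.067 (0.00240) and PPCS fell by 0.34 ± 0.054 (0.00235), both enzymes of coenzyme A synthesis, and FLAD1, which makes FAD, rose by 0.28 ± 0.048 (0.00365).

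Other lists covered lipid fuel and regulators of the kinase genes. Of 15 tested genes known elsewhere as PPAR or FOXO targets, 2 rose and 3 fell with siGlut1. FABP4, a fatty acid carrier, averaged 38.7 ± 5.18 RPKM in siGlut1 high, 17.5 ± 2.07 in NS high, 25.1 ± 2.23 in siGlut1 control and 11.8 ± 2.32 in NS control (SD, n = 3, and n = 2 for NS high), a log2 fold change of 1.12 ± 0.11 (adjusted p = 0.000239, edgeR). PLIN2, a lipid droplet protein, rose by 0.41 ± 0.055 (0.00105), while ETFDH (-0.40 ± 0.063, 0.00236) and CPT2 (-0.28 ± 0.058, 0.00889), which serve fatty acid oxidation, fell. TXNIP, an inhibitor of glucose uptake, fell by 0.80 ± 0.21 (0.0243). Its change was -1.21 in high glucose (adjusted p = 0.0495, edgeR) and -0.40 in control glucose (0.500). The interaction, -0.81, was not called (0.999). FABP4 was also the only gene of the 7 lists called between media, at 0.60 ± 0.11 higher in high glucose over both siRNAs (adjusted p = 0.0470, edgeR).

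Of 12 tested regulators known to act on the kinase genes in other cells, PPARG rose by 1.30 ± 0.22 (adjusted p = 0.00352, edgeR) and MYC by 0.23 ± 0.065 (0.0358), while PPARA (-0.54 ± 0.15, 0.0343) and SP1 (-0.20 ± 0.060, 0.0483) fell. PPARG was low throughout, averaging 0.662 ± 0.112 RPKM in siGlut1 high, 0.361 ± 0.141 in NS high, 0.762 ± 0.0202 in siGlut1 control and 0.234 ± 0.0905 in NS control. Of 13 tested genes known as hypoxia targets, a set in which PDK1 is often counted, NDRG1 (0.23 ± 0.055, 0.0190) and KDM3A (0.18 ± 0.051, 0.0358) rose and BNIP3, a mitophagy receptor, fell (-0.29 ± 0.066, 0.0144). PDK1 itself had -0.11 ± 0.080.

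PDK4 had the widest range of group means of the 10 genes, and the genes whose profile over the 11 libraries lay closest to it were looked up among 11687 others. Among the closest were METTL7A, PLVAP, a protein of endothelial fenestrae and caveolae, the endothelin receptor gene EDNRB and the zinc finger gene SALL2. Their root mean square difference from the log2 CPM profile of PDK4, each centred on its own mean, was 0.154 for METTL7A, 0.180 for PLVAP, 0.196 for EDNRB and 0.206 for SALL2, while PDK4 itself spread by 0.542 about its mean. With siGlut1 over both media their log2 fold changes were -0.59 for METTL7A, -0.75 for PLVAP, -0.72 for EDNRB and -0.81 for SALL2, with adjusted p-values of 0.0571, 0.0504, 0.0674 and 0.0793 (edgeR), none past the threshold. The likeness describes these libraries and carries no test.

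Of all 50-base windows of each gene's longest coding GENCODE transcript, 0 were shared with another gene for 9 of the 10, and 0.134% for PDK1. Sequence outside that transcript was not searched. This matters most for PDK3, whose transcript has 1921 bases against a deposited length of 13136. The listed spans of PDHA1, DLAT and PDHX overlap those of MAP3K15, PIH1D2 and APIP by 1650, 269 and 263 bases, and that of PDK2 lies within the spans listed for a pair of microRNA entries. These are whole spans, from the start to the end of an entry, and which transcribed bases lie in the overlaps was not looked up. No source used here says whether counting used strand, so reads from any transcribed bases in the overlaps cannot be told apart.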

How the data were processed

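Gene counts and RPKM (reads per kilobase, scaled to mapped reads) per library were deposited by the authors in a table of all samples, with gene spans and lengths. Per the submitters' processing notes the build was hg19 and DESeq2 was used. No source used here names the aligner, counter, strand setting or annotation. Per the labels' protocols, RNA was taken with RNeasy, and 2 library kits are named.

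The 10 genes and the gene lists were chosen with earlier results of these data known. Of 23398 entries, 123 on chromosome Y and 55 with repeated names were left out, and 0 columns had no sample. The deposited counts of 11 libraries were fitted with edgeR 4.0.16 in R 4.3.3 (TMM scaling, factors 0.975 to 1.03, quasi-likelihood test, 1 design over 4 groups with 7 residual degrees of freedom), after filtering by filterByExpr to 14319 genes, with Benjamini-Hochberg adjustment over all of them. Pairwise contrasts, averages over the other factor and their interaction were tested at 0.05. Intervals are 95% intervals from the same fit and log2 CPM uses a prior count of 2. RPKM in the text are TMM-scaled counts per kilobase of the deposited length, except where the deposited RPKM are named. The test script was tested on simulated data.

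Named were all 10 genes, SLC2A1, up to 4 called genes per list and comparison, and the 5 genes closest to PDK4, the member with the widest range of group means, by root mean square difference among genes of at least 1 CPM, of which 1 is not reported here. Alternatives were DESeq2 1.42.0, its size factors in edgeR, other filters, a replicate block, only the groups compared, the NS high 2 column put back, libraries left out, a gene-length trend removed (lowess span 0.3) and, chosen after seeing the data, counts divided by 2, GENCODE transcript lengths, and no length.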

Additional observations from a re-analysis of the deposited data

How the results depend on the processing

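The check covered 53 fold changes, those of all 10 genes except in the interaction and between media within each siRNA. There it covered only the genes whose values are given above. Over 1091 alternative values, 39 values in 18 fold changes changed sign, none of them called. The largest original size among them was 0.153. PDP1 with siGlut1 over both media kept its direction throughout. One PDP1 call was lost, without NS high 3.

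Members called: with siGlut1 in high glucose 1 with 12 columns, DESeq2, both control-glucose replicates 3 left out or only the groups compared, and 0 to 1 with single libraries left out. With siGlut1 over both media, DESeq2 called 2, and single libraries left out gave 0 to 1. Between media over both siRNAs, 5 were called without both replicates 3, and 0 to 2 with single libraries left out. Which feature of those libraries moved the calls was not tested.

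All genes called with siGlut1 in control glucose (424) numbered 824 with 12 columns, 1049 with DESeq2, 247 without both replicates 3, 70 with only the groups compared and 135 to 343 with single libraries left out. In high glucose (590) they numbered 1809, 1319, 1672, 1156 and 6 to 1078 under the same settings, and over both media (2066) 3181 with 12 columns and 1001 to 2498 with single libraries left out. For high against control glucose with NS (0) the numbers were 11 with 12 columns, 33 with DESeq2, 48 without both replicates 3 and 0 to 2 with single libraries left out. With siGlut1 (2) they were 37, 419 and 733 under those first 3 settings, 0 with only the groups compared and 0 to 17 with single libraries left out. Over both siRNAs (59) they were 428, 538 and 2581, and 0 to 839. The 12 columns count a column that is the mean of 2 others as a library.

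Signs changed for PDHX with siGlut1 over both media under the replicate block (0.019), at least 1 CPM in 6 libraries (0.0013), no filter (0.00089) and the length trend removed (0.0021). They changed for PDK3 with the length trend removed, with siGlut1 (-0.16) and over both siRNAs (-0.056), and for PDK4 between media without both replicates 3 (-0.14).

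With single libraries left out, the ranges that crossed 0 with siGlut1 in control glucose were -0.085 to 0.15 for DLAT, -0.13 to 0.024 for DLD, -0.13 to 0.039 for PDHA1, -0.058 to 0.045 for PDHB, -0.022 to 0.12 for PDHX and -0.069 to 0.13 for PDK2. In high glucose they were -0.095 to 0.012 for PDHX, -0.15 to 0.034 for PDK2 and -0.16 to 0.018 for PDK3, and over both media -0.034 to 0.036 for PDHX and -0.066 to 0.038 for PDK2. Between media over both siRNAs they were -0.0025 to 0.073 for PDHA1, -0.00050 to 0.097 for PDHB, -0.024 to 0.072 for PDK1 and -0.065 to 0.25 for PDK4, and with NS -0.025 to 0.20 for DLAT.

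Samples sharing a replicate number correlated at -0.251 to 0.535 in their deviations (median 0.12, 15 pairs, 9 over 0.1). The highest was NS control 3 with siGlut1 control 3, the lowest siGlut1 high 2 with siGlut1 control 2. Others correlated at -0.436 to 0.263 (median -0.0812, 30 pairs, 7 over 0.1). Deviations sum to 0 within a group, and those of NS high 1 and 3 mirror each other, so the pairs are not independent. Whether the numbers pair samples was not settled, and the main fit did not pair them. With the replicate block, PDP1 over both media was 0.25 (adjusted p = 0.0162, edgeR), and 2189 genes were called. PDK4 had the lowest counts of the genes followed, at 80 to 302 per library. METTL7A, the gene closest to it in profile, had 18.8 to 55.1 CPM, against 1.74 to 6.28 CPM for PDK4. The part of depth in the spread of PDK4 was not tested.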
